A study of Mus musculus with 4 samples.

Results

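The 36 genes described here encode the interstitial matrix that fibroblasts lay down: fibrillar collagens and the collagens that attach to them, proteoglycans, elastic fiber components, adhesive and matricellular glycoproteins, and the enzymes that process and cross-link these proteins. They were chosen by name. A probe set is the group of short probes on an Affymetrix array that reads 1 transcript, and the probe set with the highest mean of the 4 arrays stood for each gene. Of the 36 genes, 34 were measured, out of 18193 named genes on the array. Fbn1 and Loxl2 were not analysed here.

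The cells came from C57BL/6 mice that carried a multicolor Cre reporter and had been injected with B16 melanoma, a transplantable pigmented tumor line. The cells had been labelled with tamoxifen, tumors were dissociated 2 weeks after injection, and CD45-CD31+CD144+ cells were sorted. CD45 marks blood cells, and CD31 and CD144 (VE-cadherin) mark endothelium. From 2 separate tumors, called A and B, 1 Mouse430_2 array each was made of the most frequent clone (clonal expansion) and of the least frequent (clonal extinction). There were thus 2 arrays per clone class. Where 4 values of a gene are given, expansion comes before extinction within each tumor. The reporter, the tumor line, tamoxifen and the sorting gate were common to all groups. The promoter that drives Cre and the age of the mice are not given in the labels used here, and cells of 1 color need not descend from 1 cell.

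In connective tissue, fibroblasts secrete procollagen, which proteases trim and lysyl oxidases cross-link into fibrils. Small leucine-rich proteoglycans bind the fibrils and set their width and spacing, while fibrillin microfibrils and elastin form a separate elastic network. In a tumor the same proteins surround the vessels, and endothelial cells, pericytes and tumor cells also make some of them, such as Sparc and Fn1.

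All levels are log2 values after RMA, the authors' background correction, normalization and probe summary, so that a difference of 1 is 2-fold. A probe set's level depends on its probes as well as on the RNA, so no gene is said to be more expressed than another. Array medians lay between 5.73 and 5.83, and the number of arrays limits the precision. The sorted cells carried signal of more than endothelium. Over 20 endothelial genes the median level was 8.42 (expansion) and 10.73 (extinction) in tumor A and 11.26 and 9.69 in tumor B. The defining marker Pecam1 (CD31) was at 6.16 and 8.82 in tumor A and 8.61 and 6.90 in tumor B, and Cdh5 (CD144) at 8.69 and 11.46 and at 11.51 and 9.80. Over 14 melanoma genes it was 12.07 and 7.22 in tumor A and 6.77 and 11.42 in tumor B, with the pigment enzyme Tyr at 11.85 and 6.27 in tumor A and 4.30 and 10.55 in tumor B. Over 19 fibroblast genes that encode no matrix protein it was 8.46 and 9.82 in tumor A and 11.23 and 9.91 in tumor B. The PDGF receptor Pdgfra, a defining fibroblast gene, was at 10.08 and 11.90 in tumor A and 12.80 and 11.17 in tumor B, and the surface protein Thy1 was at 11.62 and 12.79 in tumor A and 12.10 and 11.71 in tumor B. Pdgfrb, which pericytes share, was at 12.62 and 13.71 in tumor A and 13.12 and 12.49 in tumor B. Over 10 keratinocyte genes the median level was 4.53 to 5.09, with the basal keratin Krt5 between 5.92 and 6.61. Within that list Krt10 was at 6.16 and 7.497 in tumor A and 8.49 and 6.46 in tumor B, and Sbsn reached 10.31. Over 10 leukocyte genes the median was 5.49 to 5.85, and CD45 (Ptprc) was between 3.63 and 4.27, below the median of all probe sets (5.83). Csf1r of that list was between 8.11 and 9.97, and Cd53 between 5.48 and 8.19. Fewer cells of a type and less RNA per cell cannot be told apart in such samples.

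Nearly all the fibroblast matrix genes lay above the median of all probe sets in every sorted sample, and most of their clone differences ran in opposite directions in the 2 tumors. Of the 34 measured genes, 33 lay above that median on every array, the exception being the proteoglycan Kera. The share of all genes that did so was not computed. With the brightest probe set standing for each gene, the median over all genes was itself above it, at 6.77 to 6.91 on the arrays. The median of the 34 genes was 10.94 to 12.30. The clone difference is the level in expansion minus that in extinction. It was below 0 for 31 of 34 genes in tumor A (53.7% of all genes) and above 0 for 31 of 34 in tumor B (56.9% of all genes). Both held for 28 of 34 genes, against 39.5% of all genes, and none had the reverse combination, which 28.6% of all genes had. Its median was -0.94 in A and 0.62 in B, beside -0.04 and 0.07 over all genes. The endothelial and fibroblast lists had the same directions in their medians, -2.43 and 1.68 and -1.19 and 0.87 in tumors A and B. All 20 endothelial genes and 16 of the 19 fibroblast genes were lower in expansion A and higher in expansion B. The other 3 fibroblast genes were lower in expansion in both tumors: Pdpn (-0.86 and -0.39), Vim (-0.35 and -0.05) and Tcf21 (-0.17 and -0.16). The melanoma list had the opposite directions, with medians of 4.69 and -5.10 and all 14 genes higher in expansion A and lower in expansion B. The part of these cell types in the pattern was not tested.

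**Figure D1:**
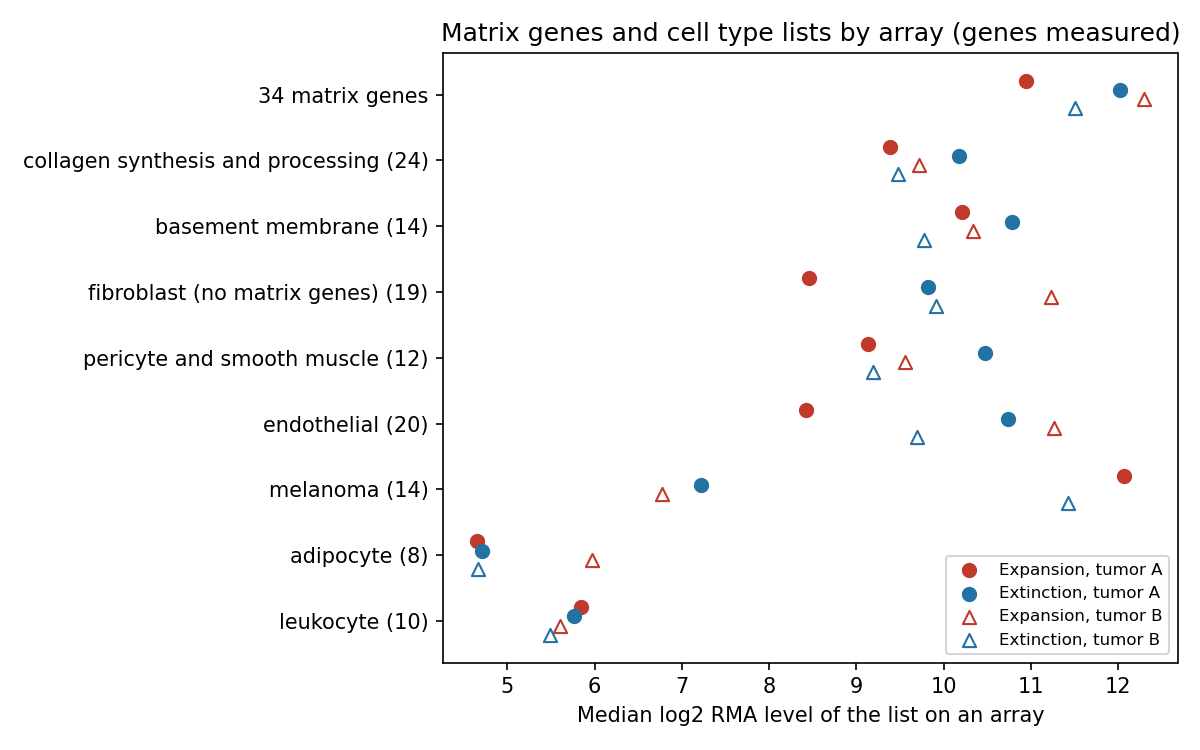
Median log2 level of the 34 matrix genes and of 8 comparison lists (number of genes measured in parentheses) on each array; red marks expansion, blue extinction, circles tumor A and triangles tumor B. The matrix genes were lowest on expansion A (10.94) and highest on expansion B (12.30). The endothelial list (8.42 and 11.26) and the fibroblast list (8.46 and 11.23) were also lowest and highest on these arrays. The collagen synthesis, basement membrane and pericyte lists were highest on extinction A.

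At the 2-fold level, 16 of 34 genes were lower in expansion in tumor A (10.4% of all genes) and 1 was higher (5.89%). In tumor B, 13 were higher in expansion (9.68%) and 1 was lower (4.77%). Of these, 11 were lower in expansion A and higher in expansion B (5.65% of all genes), and 0 had the reverse combination (3.14%). Expansion A had the lowest level of 24 of the 34 genes, where it was the lowest array for 28.1% of all genes. Expansion B had the highest level of 21, where it was the highest for 29.2% of all genes. The median of the mean clone difference over both tumors was -0.09, beside 0.02 over all genes. Omitting 1 array of tumor A gave 0.42 (expansion omitted) or 0.21 (extinction omitted), and omitting 1 of tumor B gave -0.68 or -0.38, so that its sign rested on which tumor kept both arrays. By limma's moderated test with Benjamini-Hochberg adjustment over 45037 probe sets, 0 of 34 genes differed between the clone classes (0% of probe sets called, smallest adjusted p = 1). At an unadjusted p under 0.05 there were 2 of 34, Tnc and Thbs1, against 1.04% of probe sets. This count stayed at 2 with a repeat quantile normalization or centring on array medians. It was 1 with tumor as a block, with trend and robust estimation, or with only probe sets of at least median level kept.

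**Figure D2:**
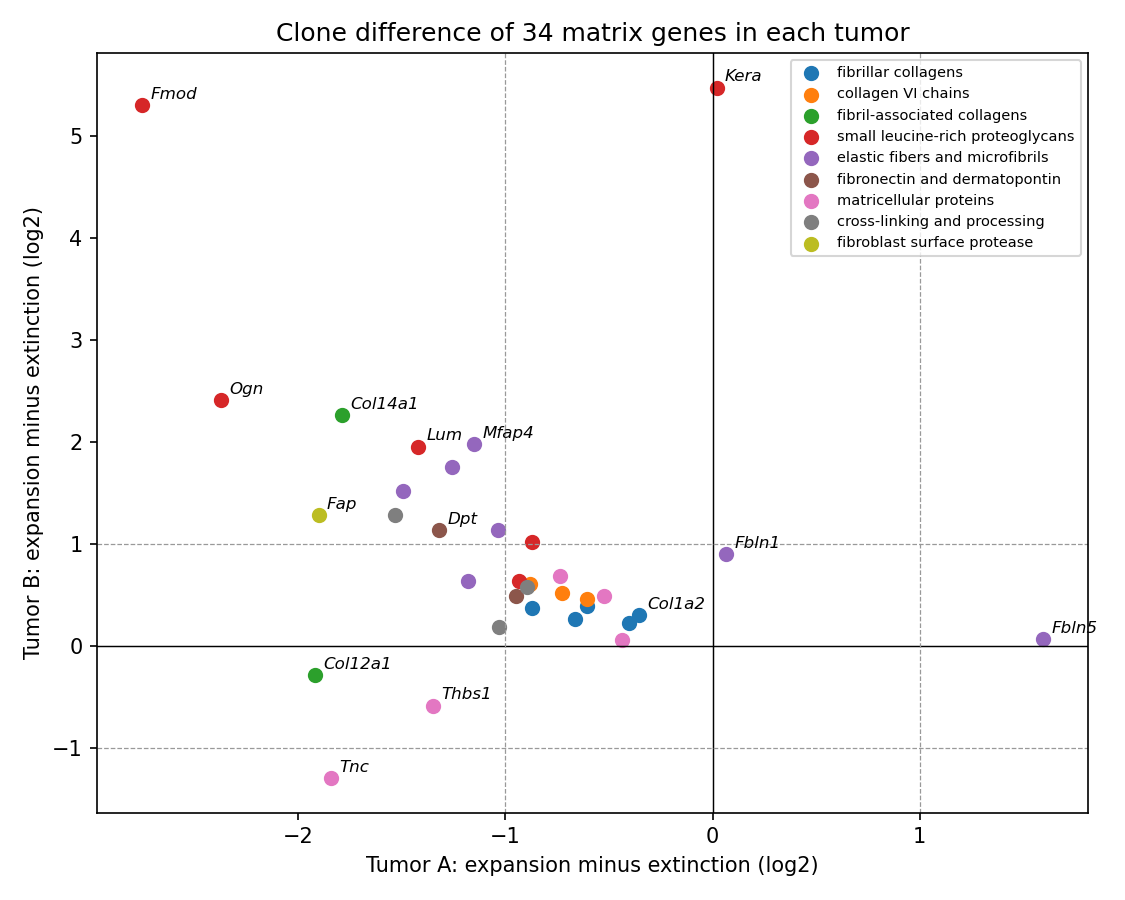
Clone difference (expansion minus extinction, log2) of the 34 matrix genes in tumor A (x axis) and tumor B (y axis), 1 point per gene colored by role, with dashed lines at 2-fold. Most genes lie in the upper left, Kera and Fmod stand above 5 in tumor B, and Tnc is the only gene past 2-fold downward in both tumors.

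The fibrillar collagens form the tensile fibrils of connective tissue, and on the brightest probe set of each gene none was 2-fold apart in either tumor. Col1a1 and Col1a2 encode the chains of collagen I, Col3a1 that of collagen III, and Col5a1 and Col5a2 chains of collagen V, which regulates fibril width. All 5 were lower in expansion A and higher in expansion B, by -0.87 to -0.35 in tumor A and 0.22 to 0.39 in tumor B. Col1a1 was at 12.34 (expansion) and 13.01 (extinction) in tumor A and at 13.08 and 12.82 in tumor B. Col1a2 was at 14.50 and 14.85 in tumor A and 14.91 and 14.60 in tumor B, and Col3a1 at 14.32 and 14.72 in tumor A and 14.76 and 14.54 in tumor B. For each of these 3 genes the groups overlapped, since expansion A was the lowest array and expansion B the highest. Col5a1 had the largest difference of the group, 11.44 and 12.31 in tumor A and 12.21 and 11.83 in tumor B, and Col5a2 was at 13.38 and 13.99 in tumor A and 13.89 and 13.50 in tumor B.

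The array maxima lay between 14.89 and 15.03, so the brightest collagens were close to the top of the scale. On every array 6 genes were within 2 log2 units of the maximum (Col1a2, Col3a1, Col5a2, Bgn, Postn and Sparc), and 0 of the 6 were 2-fold apart in either tumor, while 19 of the other 28 were. Since the rule asks for every array, it tends to leave out genes that vary widely, so the 2 sets are not split by brightness alone. Dcn had a mean level of 13.69, like Col5a2, but was 2.12 below the maximum on expansion A. It was counted among the 28 and differed by 1.02 in tumor B. The median clone differences were -0.48 and 0.35 for the 6 genes and -1.09 and 0.79 for the 28, beside -0.04 and 0.07 over all genes. These medians rest on the same split. The share of all genes that were 2-fold apart in either tumor was not computed. The part of the array maximum in this was not tested. Col3a1 differed by -0.40 and 0.22 on its brightest probe set and by -0.94 and 0.52 on the other, and Col5a2 by -0.61 and 0.39 and by -1.29 and 0.73. The dimmer probe sets of Col5a1 differed by -1.02 and 0.76 and by -0.94 and 0.62, so that 1 probe set each of Col5a1 and Col5a2 was past 2-fold in tumor A. Other genes went another way. Bgn differed by -0.94 and 0.64 on its brightest probe set and by less, -0.67 and 0.55, on its dimmest. The dimmest probe set of Col1a2 turned in tumor B (-0.57 and -0.71), and that of Sparc turned in both tumors (0.29 and -0.40). Over 24 genes with more than 1 probe set that lay no lower than the median of all probe sets, the size of the difference between the tumors had a median of 1.45 on the brightest and 1.96 on the dimmest of these, and it was larger on the dimmest in 14.

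**Figure D3:**
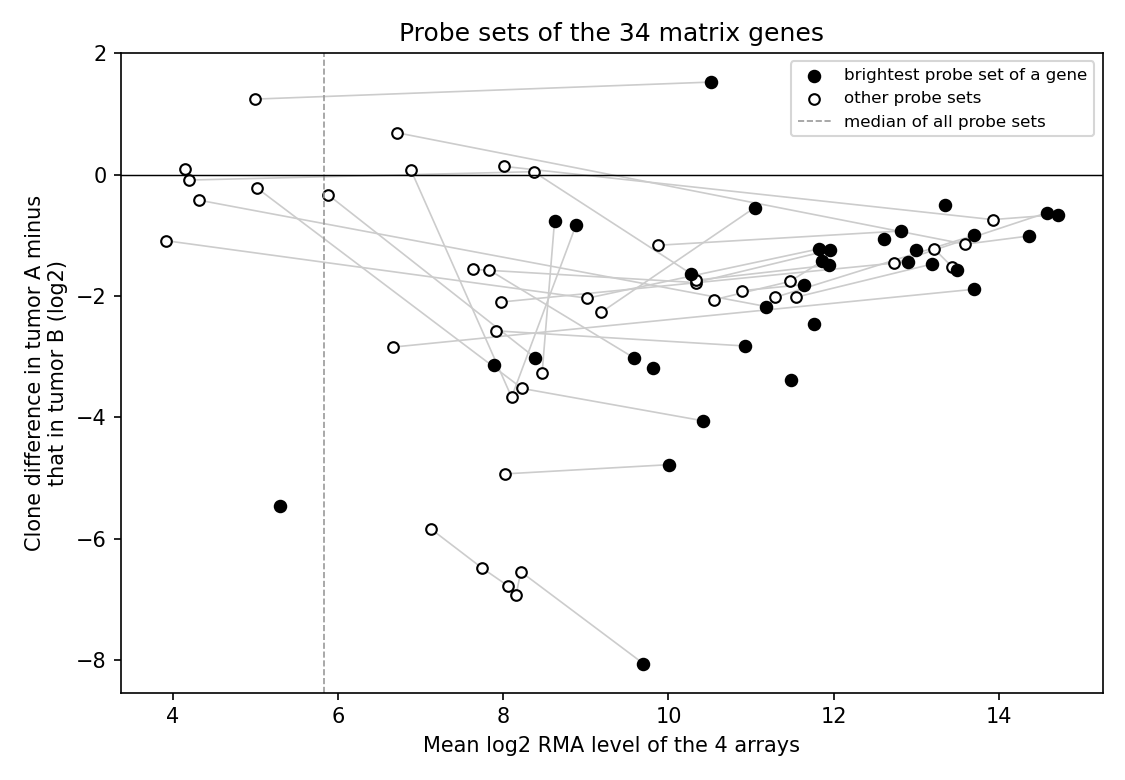
Mean log2 level (x axis) of each of the 74 probe sets of the 34 genes against the clone difference in tumor A minus that in tumor B (y axis, log2), with lines joining probe sets of a gene. Filled points are the brightest probe set of a gene, and those above 13 lie between -2 and 0, and Fmod reaches -8.05.

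The sequences upstream of Col1a2 and Col3a1 are shown because these genes encode main fibril chains. On their brightest probe sets both were less than 2-fold lower in expansion A and less than 2-fold higher in expansion B. Each sequence is the 250 bases before the gene's first listed start in RefSeq's GRCm38.p6 table, read 5′ to 3′ on the gene's strand. None was matched for Col1a1. That of Col1a2 is chr6:4505368-4505617 (plus strand) and that of Col3a1 is chr1:45311288-45311537 (plus strand). Capitals mark matches, on either strand, to CCAAT (the CCAAT box), GGGCGG (the GC box), TATAAA (the TATA box) or TGANTCA (the AP-1 site).
Col1a2: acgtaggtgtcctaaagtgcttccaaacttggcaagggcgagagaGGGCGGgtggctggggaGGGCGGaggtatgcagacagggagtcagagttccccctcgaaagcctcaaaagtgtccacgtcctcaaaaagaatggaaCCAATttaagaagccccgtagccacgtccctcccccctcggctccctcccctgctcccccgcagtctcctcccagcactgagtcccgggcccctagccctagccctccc
Col3a1: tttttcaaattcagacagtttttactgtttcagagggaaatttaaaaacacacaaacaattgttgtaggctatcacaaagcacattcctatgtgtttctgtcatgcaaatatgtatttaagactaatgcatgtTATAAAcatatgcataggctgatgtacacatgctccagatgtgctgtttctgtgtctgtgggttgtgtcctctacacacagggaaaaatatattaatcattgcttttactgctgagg
The Col1a2 stretch held 1 CCAAT and 2 GGGCGG matches, and that of Col3a1 held 1 TATAAA. Such upstream stretches matched 20 of the 34 genes. GGGCGG was in 9 of the 20 (45%, against 32.9% of 27025 genes), CCAAT in 4 (20%, against 34.5%), TATAAA in 4 (20%, against 13%) and TGANTCA in 1 (5%, against 6.87%). No matches overlapped in the stretches printed, and a match is a description of the letters only.

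Collagen VI forms beaded microfilaments that link cells to the fibrillar matrix, and its chains differed between the tumors in the extinction arrays. Col6a1 was at 12.69 (expansion) and 13.30 (extinction) in tumor A and at 12.45 and 11.99 in tumor B. Both tumor B arrays lay below both tumor A arrays for Col6a1. Col6a2 was at 11.72 and 12.60 in tumor A and 12.05 and 11.44 in tumor B, and Col6a3 at 12.84 and 13.57 in tumor A and 13.06 and 12.54 in tumor B. All 3 chains were at least 2-fold lower in extinction B than in extinction A, by -1.30 for Col6a1, -1.16 for Col6a2 and -1.02 for Col6a3. Between the expansion arrays they differed by -0.24, 0.33 and 0.22. The clone differences of the 3 chains were alike in size, between -0.88 and -0.60 in tumor A and between 0.46 and 0.61 in tumor B. Col6a1 and Col6a2 are adjacent in the genome, whereas Col6a3 is on another chromosome.

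Collagens XII and XIV attach to the surface of fibrils, and both genes were more than 2-fold lower in expansion in tumor A. Col14a1 was at 8.87 (expansion) and 10.66 (extinction) in tumor A and at 12.19 and 9.93 in tumor B. It was thus 3.46-fold lower in expansion A and 4.80-fold higher in expansion B, and the clone classes overlapped. Col12a1 was at 9.35 and 11.27 in tumor A and 10.10 and 10.39 in tumor B, with both expansion arrays below both extinction arrays. Its clone difference was -1.92 in A and -0.29 in B, a mean of -1.10 ± 0.46 (SE, n = 2 per class, adjusted p = 1 by limma). A dimmer probe set of Col12a1 differed by -0.67 and -0.72.

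The small leucine-rich proteoglycans held the largest differences of the 34 genes, those of Kera and Fmod in tumor B. Keratocan (Kera), known from the cornea, was at 9.47 in expansion B and at 3.87 in expansion A, 3.85 in extinction A and 3.996 in extinction B. On those 3 arrays it lay below the median of all probe sets (5.83), so that its levels there have no order. Each log2 difference given for Kera rests on those low levels. Its level on expansion B exceeded the highest of them by 5.48 on the log2 scale, the largest such difference of the 18193 genes, as a value that rests on those low levels. Fibromodulin (Fmod), which binds collagen I and modulates cross-linking, was at 7.56 and 10.31 in tumor A and 13.11 and 7.81 in tumor B. It was 39.4-fold higher in expansion B than in extinction B and 6.74-fold lower in expansion A than in extinction A. All 6 probe sets of Fmod had the same signs, with differences of -2.75 to -1.30 in tumor A and 4.53 to 5.30 in tumor B.

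Osteoglycin (Ogn) was at 7.64 and 10.01 in tumor A and 12.38 and 9.98 in tumor B, so that the extinction arrays lay close together and the expansion arrays on either side of them. Lumican (Lum), which regulates fibril assembly, was at 10.59 and 12.01 in tumor A and 12.64 and 10.68 in tumor B. Decorin (Dcn), which binds collagen and growth factors of the TGF-beta family, was at 12.91 and 13.78 in tumor A and 14.55 and 13.53 in tumor B. Biglycan (Bgn), the close relative of decorin, was at 13.20 and 14.13 in tumor A and 13.64 and 13.002 in tumor B and was the only 1 of these 6 genes with its highest level on extinction A. Dcn, Lum and Kera lie next to each other in the genome in this order, and in tumor B they differed by 1.02, 1.95 and 5.48. Epyc, the gene after Kera, stayed between 3.51 and 3.74 on the 4 arrays.

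The mean clone difference was 2.75 ± 2.14 (SE, n = 2 per class) for Kera and 1.27 ± 2.32 (SE) for Fmod, and neither passed limma's test (adjusted p = 1 for both). Leaving out these 2 genes, the median over the remaining 32 was -0.94 in A and 0.59 in B. Among 9 further leucine-rich proteoglycan genes, added after the values of Kera and Fmod were seen, Prelp was at 7.48 and 9.52 in tumor A and 10.93 and 8.34 in tumor B, and Omd, the neighbor of Ogn, at 4.64 and 5.42 in tumor A and 6.66 and 5.18 in tumor B. Aspn was at 9.35 and 10.77 in tumor A and 10.20 and 9.74 in tumor B, with its highest level on extinction A.

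Several genes of other connective tissues were also highest on expansion B. The tendon genes were added after seeing the data. Tenomodulin (Tnmd), a marker of mature tendon and ligament, was at 5.52 and 5.94 in tumor A and 9.56 and 5.55 in tumor B, and the cartilage and tendon protein Comp at 4.598 and 5.23 in tumor A and 7.89 and 5.07 in tumor B. Chad was at 4.73 and 4.57 in tumor A and 6.75 and 4.53 in tumor B. The tendon transcription factors Scx and Mkx were between 4.01 and 4.596 on all arrays. Of the 8 genes of that list, 6 were at least 2-fold higher in expansion B than in extinction B, against 9.68% of all genes. As the list was chosen with expansion B known, this count is a description only. On extinction B, Tnmd, Comp and Chad lay below the median of all probe sets. Cilp, also among the 6, was highest on extinction A (11.05, against 10.75 on expansion B). Of 8 adipocyte genes, 3 were at least 2-fold higher in expansion in tumor B, and the median difference there was 0.46. Adipoq and Car3 were at 6.78 and 11.49 on expansion B, against 3.75 to 3.78 and 4.06 to 6.46 on the other arrays, and Lpl was at 13.58 against 11.06 to 12.41. The other 5 genes differed by 0.15 to 0.47 in tumor B. The skeletal muscle actin Acta1 was between 6.03 and 6.47, and over 8 skeletal muscle genes the median level was 5.07 to 5.37. The part of these tissues in the levels of Kera and Fmod was not tested.

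**Figure D4:**
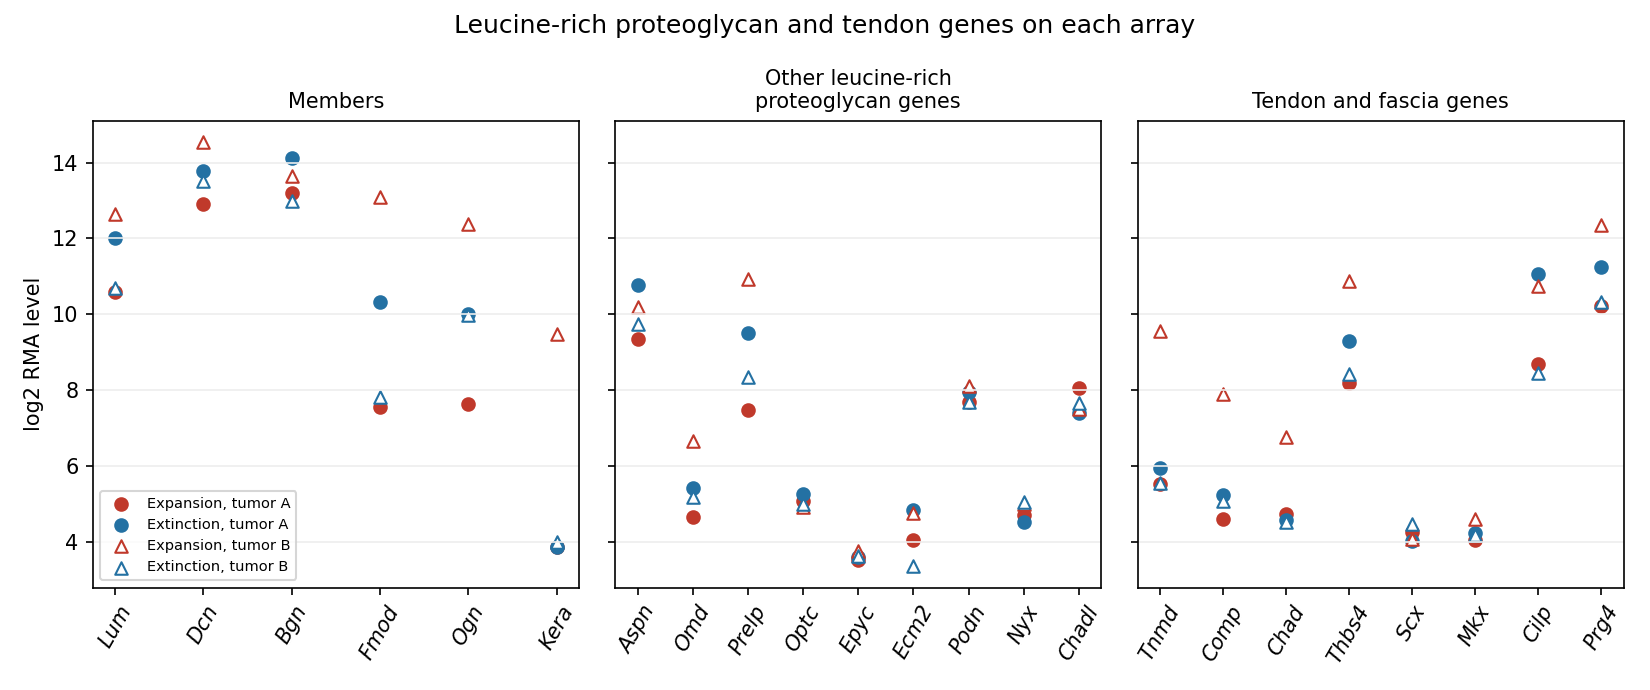
Log2 level of the 6 leucine-rich proteoglycan genes described here, of 9 others of the family and of 8 tendon and fascia genes on each array (red expansion, blue extinction, circles tumor A, triangles tumor B). Kera, Fmod, Ogn, Prelp, Tnmd and Comp stand highest on expansion B, while Scx, Mkx and Epyc stay below 5 on every array.

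The upstream sequences of Kera and Fmod are shown because they are the genes with the largest differences. They lie at chr10:97606955-97607204 (plus strand) and chr1:134037004-134037253 (plus strand) of GRCm38.p6, with capitals as for the collagens.
Kera: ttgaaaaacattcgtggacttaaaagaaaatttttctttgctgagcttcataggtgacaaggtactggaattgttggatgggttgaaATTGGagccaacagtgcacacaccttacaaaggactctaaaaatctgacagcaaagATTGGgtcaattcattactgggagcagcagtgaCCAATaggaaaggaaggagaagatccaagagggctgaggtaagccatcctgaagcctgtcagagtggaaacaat
Fmod: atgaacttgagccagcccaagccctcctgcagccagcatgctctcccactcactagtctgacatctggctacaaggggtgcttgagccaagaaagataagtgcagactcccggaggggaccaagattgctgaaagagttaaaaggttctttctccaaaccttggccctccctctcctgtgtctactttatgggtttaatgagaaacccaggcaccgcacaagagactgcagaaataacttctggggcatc
The Kera stretch held 3 CCAAT matches, 2 of them read as ATTGG on this strand, and none of the 4 motifs was found in that of Fmod.

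Genes of elastic fibers and microfibrils also ran in opposite directions in the tumors, apart from 2 fibulins. Elastin (Eln) was at 7.32 (expansion) and 8.57 (extinction) in tumor A and at 9.70 and 7.95 in tumor B. The microfibril-associated genes Mfap2, at 8.56 and 10.06 in tumor A and 10.62 and 9.10 in tumor B, and Mfap4, at 7.37 and 8.53 in tumor A and 8.83 and 6.84 in tumor B, were likewise lower in expansion in tumor A and higher in tumor B. Mfap5 differed by -1.18 in tumor A and 0.63 in tumor B. Fbln2, a fibulin of microfibrils and basement membranes, differed by -1.03 and 1.14. Thus 4 of the 7 measured genes passed 2-fold in both tumors, downward in A and upward in B, a combination of 5.65% of all genes.

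Fbln5, which is needed for the assembly of elastic fibers, went another way. It was at 11.16 (expansion) and 9.57 (extinction) in tumor A and at 10.70 and 10.63 in tumor B, 3.02-fold higher in expansion in tumor A and nearly equal in tumor B. It was the only 1 of the 34 genes with its highest level on expansion A. Its mean clone difference was 0.83 ± 0.46 (SE, n = 2 per class, adjusted p = 1 by limma), and a dimmer probe set differed by 0.99 and -0.26. Fbln1 was at 8.86 and 8.79 in tumor A and 9.39 and 8.49 in tumor B on its brightest probe set, but at 7.05 and 8.49 in tumor A and 9.55 and 7.32 in tumor B on the next, so that the probe sets of Fbln1 disagree in tumor A (0.07 and -1.44).

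Fibronectin (Fn1), the adhesive glycoprotein that integrins bind, was at 12.42 (expansion) and 13.37 (extinction) in tumor A and at 13.15 and 12.66 in tumor B. Its dimmer probe set differed by -2.18 in tumor A and -0.08 in tumor B. Dermatopontin (Dpt), which binds decorin and promotes fibril formation, was at 10.21 and 11.53 in tumor A and 13.22 and 12.08 in tumor B. Both tumor B arrays lay above both tumor A arrays for Dpt. It was higher in tumor B by 1.78 ± 0.67 (SE, n = 2 per tumor, adjusted p = 1 by limma).

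Matricellular proteins modulate how cells attach to the matrix, and among them Tnc and Thbs1 had lower levels in expansion in either tumor. Tenascin C (Tnc), an anti-adhesive glycoprotein of tumor stroma and wounds, was at 10.46 in expansion A and 10.06 in expansion B and at 12.30 in extinction A and 11.36 in extinction B. Both expansion arrays lay below both extinction arrays, and Tnc was 3.58-fold lower in tumor A and 2.46-fold lower in tumor B. At 2-fold it was the only 1 of the 34 genes with the same direction in both tumors, where 0.077% of all genes were lower and 0.011% higher in both. Its mean clone difference was -1.57 ± 0.41 (SE, n = 2 per class, unadjusted p = 0.0251 and adjusted p = 1 by limma). Its other probe set was at 8.18 and 10.87 in tumor A and 8.63 and 9.06 in tumor B, lower in both tumors but by less than 2-fold in tumor B (-0.42).

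Thrombospondin 1 (Thbs1), an inhibitor of angiogenesis and activator of latent TGF-beta, was at 7.83 and 9.18 in tumor A and 8.44 and 9.03 in tumor B. The clone classes did not overlap on this probe set, and the mean difference was -0.97 ± 0.28 (SE, n = 2 per class, unadjusted p = 0.0317 and adjusted p = 1 by limma). The other probe set of Thbs1, nearly as bright, differed by -2.22 in tumor A and by 1.05 in tumor B, so the direction in tumor B depended on the probe set. Over the 34 genes, the expansion arrays lay below both extinction arrays for 3 (9.11% of all genes) and above them for 2 (11.6%), Fbln1 and Fbln5. These counts, 8.82% and 5.88% of the 34 genes, are near or below the shares of all genes.

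The brightest probe sets of the remaining matricellular genes stayed within 2-fold in both tumors. Sparc, a collagen-binding protein also made by endothelium, was at 14.10 and 14.62 in tumor A and 14.62 and 14.13 in tumor B. Periostin (Postn), a product of activated fibroblasts, was at 13.26 and 13.69 in tumor A and 13.25 and 13.20 in tumor B. Its clone difference was -0.44 in A and 0.06 in B. Thbs2, the second thrombospondin, was at 11.29 and 12.03 in tumor A and 12.41 and 11.72 in tumor B on its brightest probe set, a difference of -0.74 in A. Its dimmer probe sets differed by -1.54 and -1.34 in tumor A, past 2-fold, and by 0.22 and 0.72 in tumor B.

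The upstream sequence of Tnc is shown because this gene was lower in expansion in both tumors. It lies at chr4:64047016-64047265 (minus strand) of GRCm38.p6, before the first of the starts listed for Tnc, with capitals as above.
Tnc: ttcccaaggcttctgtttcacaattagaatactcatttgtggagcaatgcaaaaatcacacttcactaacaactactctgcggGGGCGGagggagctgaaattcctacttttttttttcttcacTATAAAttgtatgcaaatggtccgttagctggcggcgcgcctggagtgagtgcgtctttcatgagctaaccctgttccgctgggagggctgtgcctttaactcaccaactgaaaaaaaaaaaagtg
It held 1 TATAAA and 1 GGGCGG match, and the former began 126 bases before the listed start.

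Of the enzymes, the lysyl oxidases cross-link collagen and elastin and Pcolce enhances the trimming of procollagen. Lox was at 11.09 (expansion) and 12.12 (extinction) in tumor A and at 12.13 and 11.94 in tumor B, so that only expansion A stood apart. Loxl1, which acts on elastic fibers, was at 9.88 and 11.41 in tumor A and 11.85 and 10.56 in tumor B, and Pcolce at 12.54 and 13.43 in tumor A and 13.69 and 13.11 in tumor B. Fap, a serine protease on the surface of activated fibroblasts, was at 8.70 and 10.60 in tumor A and 10.61 and 9.33 in tumor B. Extinction A and expansion B were nearly equal for Fap, and it was 3.74-fold lower in expansion A and 2.43-fold higher in expansion B.

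**Figure D5:**
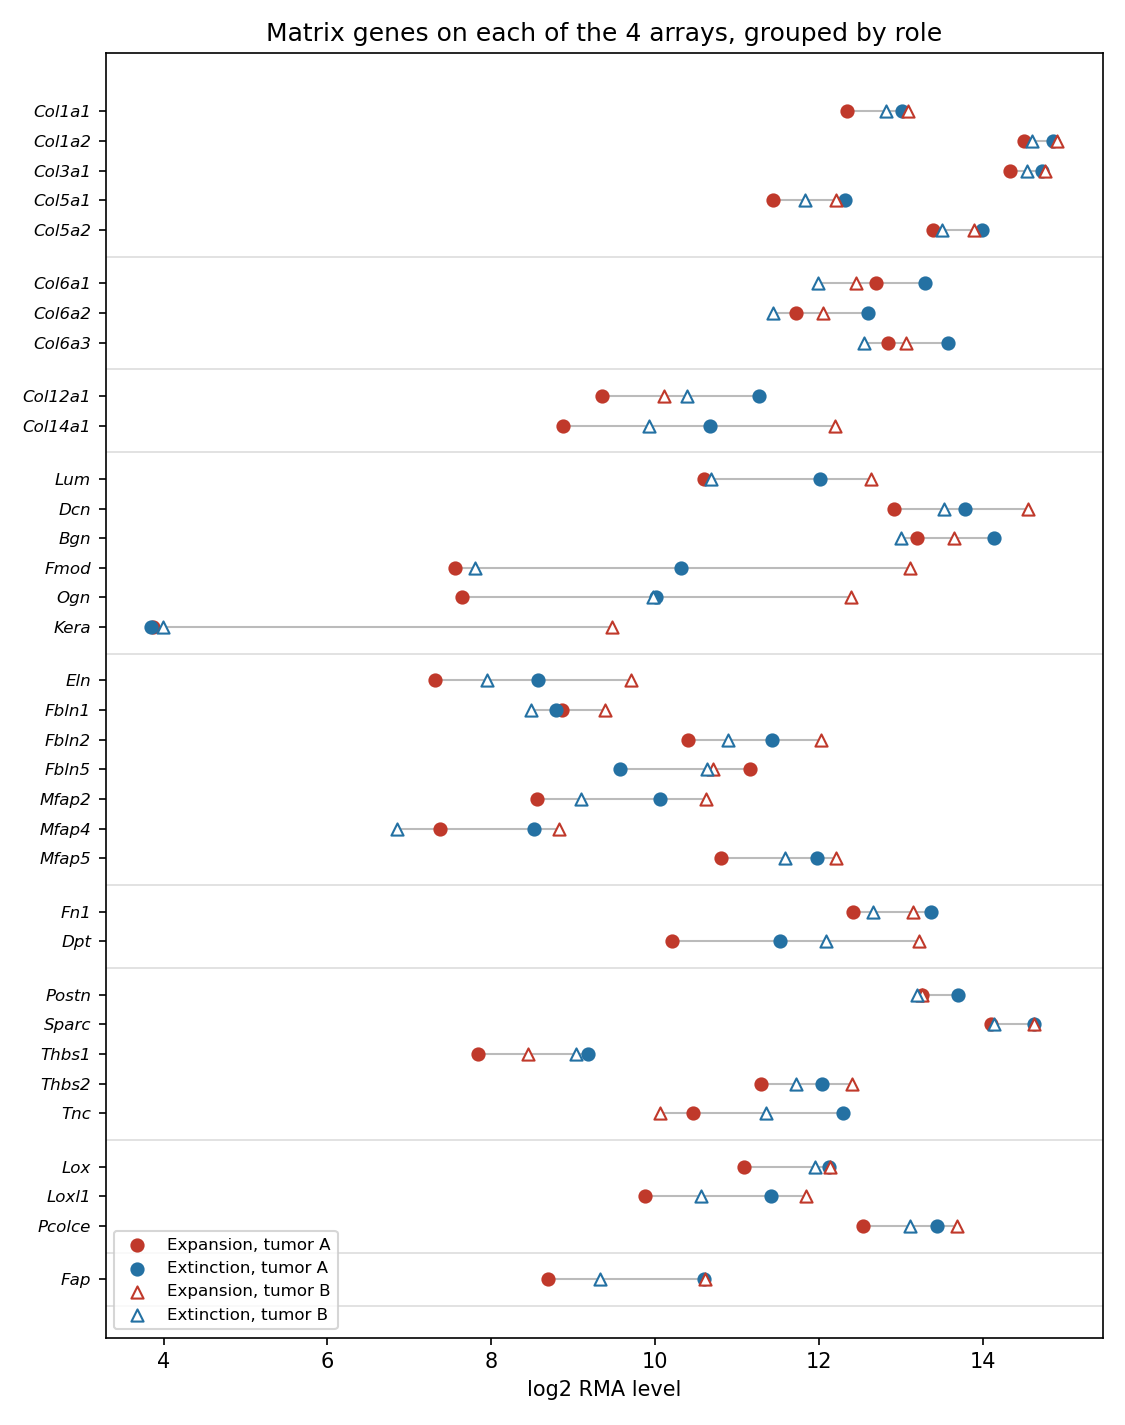
Log2 RMA level of each of the 34 measured genes on the 4 arrays, grouped by role from fibrillar collagens (top) to Fap (bottom), with a grey line over the range; red marks expansion, blue extinction, circles tumor A and open triangles tumor B. Expansion A is the lowest array for 24 genes and expansion B the highest for 21, and Kera spans 3.85 to 9.47.

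Compared between the tumors, the expansion arrays differed more than the extinction arrays. Of the 34 genes, 17 were at least 2-fold higher in expansion B than in expansion A (11% of all genes) and 0 lower (7.19%). Between the extinction arrays 8 were lower in tumor B (8.05%) and 1, Fbln5, was higher (4.2%). The genes higher in expansion B were led by Kera (5.60, from a level below the median of all probe sets), Fmod (5.55), Ogn (4.74), Col14a1 (3.32) and Dpt (3.01). The genes lower in extinction B were led by Fmod (-2.51), Mfap4 (-1.68), Lum (-1.33) and Col6a1 (-1.30). None was 2-fold apart the same way in both classes, where 0.0715% of all genes were higher and 0.055% lower in tumor B. By limma 0 of 34 genes passed between the tumors (0% of probe sets called, smallest adjusted p = 1 among the 34 genes), and 0 had an unadjusted p under 0.05 (1.44% of probe sets). The tumors did not overlap for 2 genes with higher levels in tumor B (9.34% of all genes), Dpt and Kera. For Kera, extinction B (3.996) was below the median of all probe sets, as were both tumor A arrays, so that this order is not read for Kera. Nor did they overlap for Col6a1 and Postn, lower in tumor B (13.9%). For Postn this rested on a difference of only -0.0037 between the expansion arrays. Each of these counts, 5.88% of the 34 genes, is below its share of all genes.

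Genes that make and process collagen inside and outside the cell were taken as a second list. Of 27 such genes 24 were measured, and 0 passed limma's test between clone classes or tumors. In 16 the level was lower in expansion A and higher in expansion B (39.5% of all genes), in 3 the reverse (28.6%), in 4 lower in both (14.1%) and in 1 higher in both (17.3%), and the median clone difference was -0.74 in A and 0.36 in B. Pcolce2, a second procollagen enhancer, was at 8.59 and 11.16 in tumor A and 12.48 and 9.28 in tumor B. The procollagen protease Tll1 was at 3.59 and 6.08 in tumor A and 6.80 and 3.86 in tumor B. On expansion A and extinction B it lay below the median of all probe sets (5.83), so its difference in either tumor rests on a low level. The endoplasmic reticulum channel gene Tmem38b was at 7.28 and 8.49 in tumor A and 8.79 and 7.54 in tumor B. The lysyl hydroxylase Plod2, which is induced by hypoxia, was at 11.29 and 10.13 in tumor A and 9.80 and 10.98 in tumor B, the reverse of most of these genes. Mia3, which helps export procollagen, differed by 0.84 and -0.24, and the prolyl hydroxylase family gene P3h3 by -0.25 and -0.33. The chaperone Serpinh1 (Hsp47), which is specific for collagen, was at 12.91 and 13.49 in tumor A and 13.35 and 13.06 in tumor B and was named after its values were seen.

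Lists of vessel wall genes are set beside the matrix genes, whose medians were -0.94 in A and 0.62 in B, against -0.04 and 0.07 over all genes. The 14 basement membrane genes had median clone differences of -1.08 in A and 0.68 in B. Of these 14, 13 were lower in expansion A and higher in expansion B, a combination of 39.5% of all genes. The 12 pericyte and smooth muscle genes had medians of -0.92 and 0.36, with 8 in that combination, and their marker Rgs5 was at 13.13 and 13.38 in tumor A and 12.90 and 12.41 in tumor B. All 20 endothelial genes had that combination, with medians of -2.43 and 1.68. A difference between these lists and the matrix genes was not tested.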

How the data were processed

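Expression was measured on 4 Affymetrix Mouse430_2 arrays, with RNA extracted with TRIzol and amplified in 2 rounds, per the labels' protocols. The deposited log2 values were made by RMA in affy, per the submitters' processing notes; versions are not given in the sources used here. By design RMA quantile-normalizes the arrays together, which can compress differences near the top of the scale, and amplification can enlarge differences between small samples.

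Of 45101 probe sets, 64 controls were set aside. Names came from the platform annotation, and all 34 measured genes carried the same symbol in RefSeq's GRCm38.p6 table by gene ID. Clone classes and tumors were compared by limma 3.58.1 under R 4.3.3 (lmFit, eBayes, two-sided, 2 residual degrees of freedom, Benjamini-Hochberg over 45037 probe sets, threshold 0.05), and the step was tested on simulated data. SE are limma's moderated errors. Differences within a tumor rest on 1 array a class and were counted at 2-fold, untested. The arrays of a class are biological replicates by their titles, but with 2 per class the p-values measure only the spread between these arrays. The replicate number stands for the tumor and so pairs the arrays; their deviations from the class means correlated at r = -0.66 across genes.

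Genes were named by role. Each array's values were given for genes that differed 2-fold in 1 direction in both tumors or classes and for the largest and smallest differences of a role, and others were named after their values were seen. The 36 genes and the lists were chosen with earlier results of these data known. Alternatives were tumor or clone class as a block, eBayes with trend and robust estimation, a repeat quantile normalization, centring on array medians, a filter that kept probe sets of at least median level, other rules for a gene's probe set, 1.5-fold as the threshold and omission of each array. Where lists were added after seeing the data, the text says so.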

Additional observations from a re-analysis of the deposited data

Results flagged for a closer look

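Most of the clone differences pointed in opposite directions in the tumors, with 1 array per class and tumor, so the difference between the tumors was not tested. Over the 34 matrix genes, the clone difference in tumor A minus that in tumor B had a median of -1.48 on the log2 scale. Among genes at least 2-fold apart in opposite directions, this value was -8.05 for Fmod, -4.78 for Ogn, -4.05 for Col14a1 and -3.38 for Lum. It was -3.18 for Fap, -3.13 for Mfap4, -3.02 for Mfap2, -3.01 for Eln, -2.82 for Loxl1, -2.46 for Dpt and -2.17 for Fbln2.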

How the results depend on the processing

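With 4 arrays the depth of evidence is 2 arrays per class, and whether the array maximum limits the differences of the brightest genes was not tested. With tumor as a replicate block between the clone classes, or clone class as the block between the tumors, limma called 0 probe sets, as it did under each of the other alternatives run, so the block changed no call. The median over the 34 genes of the mean clone difference (-0.09) ranged from -0.68 to 0.42 when each array was left out in turn, where the class left with 1 array was assumed to vary like the other, and its sign turned without either array of tumor A. A threshold of 1.5-fold gave 27 genes lower in expansion in tumor A in place of 16, and 2 in tumor B in place of 1. The shares of all genes at 1.5-fold were not computed, so these counts have no background to be read against. The 1 gene lower in tumor B, Tnc, was not counted (0 genes) with probe sets averaged per gene, the widest probe set or the dimmest at or above the median, the last of which was added after seeing the data. The clone difference of Col6a2 turned from -0.13 to 0.012 with the widest probe set; the cause was not tested. Leaving out each array, for genes whose clone classes did not overlap, gave -2.04 to -1.10 for Tnc, -1.27 to -0.66 for Thbs1, -1.54 to -0.66 for Col12a1, 0.30 to 1.36 for Fbln5 and 0.22 to 0.75 for Fbln1. Of 26 genes with more than 1 probe set, 17 had the same signs on all of them; the others were Col1a2, Col12a1, Col14a1, Fbln1, Fbln2, Fbln5, Fn1, Sparc and Thbs1.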

Other observations

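Ranked by how far expansion B exceeded the highest other array, Kera (5.48, from a level below the median of all probe sets) was followed by Timp4, a tissue inhibitor of metalloproteinases (5.18), the carbonic anhydrase Car3 (5.03), the surface glycoprotein Prom1 (4.35), Ccdc85a (4.07) and the tendon gene Tnmd (3.61). The matrix gene Vit (vitrin) was in the ninth place (3.49). Among the matrix genes described here, Fmod had rank 29, Ogn rank 46 and Col14a1 rank 163 of 18193 in that order. These genes were named after their values were seen, and no test applies to 1 array.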
